A study of Mus musculus with 6 samples.

Results

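The photoreceptor fate transcription factors described here are Crx, Nrl, Otx2, Neurod1, Prdm1, Samd7 and Casz1. They were taken as a list of 7 genes, and every probe set that the platform annotation pairs with 1 of these symbols was read. This gave 13 probe sets of the 45037 that are not Affymetrix controls, for 7 of 18193 gene symbols. A probe set is a group of short probes against 1 transcript region, summarised as 1 signal. Casz1 had 4 probe sets, Crx, Neurod1 and Samd7 had 2 each, and Nrl, Otx2 and Prdm1 had 1 each.

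The study profiled RNA from mouse retinas at postnatal day 21, with 3 Affymetrix arrays for each of 2 genotypes (6 in all). One group was labelled ERRβ -/- knockout on a C57Bl/6 x Sv129 background, and the other was labelled wildtype of strain C57Bl/6, each sample being 2 pooled retinas of mixed sex. ERRβ is an orphan nuclear receptor encoded by Esrrb, and the comparison asks which retinal transcripts differ without it. Genotype and strain background cannot be told apart in this design, and the labels do not say whether samples of a group came from separate animals, so the p-values given here reflect sample-to-sample spread, which may be partly technical.

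In the vertebrate retina, a newborn photoreceptor is specified by a short cascade of DNA-binding proteins. Otx2, a homeodomain protein, commits the cell and switches on its relative Crx, which activates many genes of the outer segment. Nrl, a leucine zipper protein, then directs the rod rather than the cone programme, while Neurod1, a basic helix-loop-helix protein, helps maintain photoreceptors. Prdm1, a zinc finger repressor also called Blimp1, holds back the bipolar cell programme in young photoreceptors. Samd7, a protein of the Polycomb silencing machinery, and Casz1, a zinc finger protein, act in rods to keep genes of other programmes silent and to organise the nucleus.

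Because proteins of this cascade are known to bind near each other's genes, upstream sequences are shown for Crx, Samd7 and Casz1, which hold the Crx and Otx2 core, and for Prdm1 and Neurod1, which were the higher ones in labelled knockout retinas with the widest margin relative to their spread. Each covers the 250 bases before an annotated start, from RefSeq on GRCm38.p6, written 5′ to 3′ on the strand of the gene. The windows of Prdm1 and Casz1 shown here lie inside the annotated span of the gene, before 1 of its starts. Capitals mark matches, on either strand, to TAATCC (core bound by Crx and Otx2), AAGGTCA (half-site bound by estrogen-related receptors), CAGATG (an E-box variant of the kind that Neurod1 and its relatives bind) or TGCTGA (core of the element bound by Nrl).
Crx, chr7:15879956-15880205, minus strand: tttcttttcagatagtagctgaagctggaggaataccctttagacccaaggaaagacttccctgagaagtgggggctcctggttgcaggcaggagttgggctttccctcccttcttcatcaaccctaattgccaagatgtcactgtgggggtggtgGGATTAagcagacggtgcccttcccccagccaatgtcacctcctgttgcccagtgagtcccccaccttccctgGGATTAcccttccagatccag
Samd7, chr3:30746043-30746292, plus strand: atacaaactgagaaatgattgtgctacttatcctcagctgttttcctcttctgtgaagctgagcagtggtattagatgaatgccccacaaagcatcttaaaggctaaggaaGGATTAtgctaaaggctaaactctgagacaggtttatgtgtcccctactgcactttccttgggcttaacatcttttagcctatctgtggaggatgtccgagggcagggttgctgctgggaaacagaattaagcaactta
Casz1, chr4:148889097-148889346, plus strand: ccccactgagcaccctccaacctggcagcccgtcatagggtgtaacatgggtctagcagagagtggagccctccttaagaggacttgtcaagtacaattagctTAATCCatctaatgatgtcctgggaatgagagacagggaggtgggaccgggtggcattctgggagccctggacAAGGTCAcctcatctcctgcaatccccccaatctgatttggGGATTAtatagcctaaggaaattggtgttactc
Neurod1, chr2:79456637-79456886, minus strand: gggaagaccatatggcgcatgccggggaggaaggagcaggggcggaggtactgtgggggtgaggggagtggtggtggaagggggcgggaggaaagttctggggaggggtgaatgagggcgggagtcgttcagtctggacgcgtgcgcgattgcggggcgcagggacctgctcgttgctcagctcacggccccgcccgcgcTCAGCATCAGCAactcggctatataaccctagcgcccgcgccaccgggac
Prdm1, chr10:44458749-44458998, minus strand: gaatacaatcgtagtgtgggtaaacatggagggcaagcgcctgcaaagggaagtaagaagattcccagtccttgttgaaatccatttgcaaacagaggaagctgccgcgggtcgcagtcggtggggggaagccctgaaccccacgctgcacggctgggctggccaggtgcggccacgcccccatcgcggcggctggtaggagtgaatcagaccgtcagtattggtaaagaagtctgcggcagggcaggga
In the Crx window TAATCC matched 2 times on the reverse strand, beginning 94 and 21 bases before the start. The Samd7 window held TAATCC at 139 bases and the Casz1 window at 147 and 33 bases before the start. All 7 genes matched the promoter table, with 11 windows among them, and TAATCC occurred in 4 of the 11 (1 window each of Crx, Samd7, Casz1 and Otx2), against 6.25% of all 32851 windows of this length. The half-site AAGGTCA occurred in 1 of the 11 windows, that of Casz1 shown here at 74 bases before the start, and in 4.08% of all windows. CAGATG was found in a window each of Nrl and Otx2 (14.4% of all windows), and TGCTGA in a window each of Neurod1, where 2 adjacent matches begin 50 and 44 bases before the start, and Otx2 (16.1% of all windows). The Prdm1 window held none of these letters. No match overlapped another, and a match describes letters in a window, not binding.

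The deposited signals were on 2 scales. Replicates 1 and 2 of both genotypes had a trimmed mean near 500, and replicate 3 of both near 150, so signals are compared within these 2 sets of arrays, and fold changes over the 6 arrays come from a limma fit with the set as a term. Precision is limited by the 3 arrays per genotype. Esrrb, the targeted gene, read 3435, 4012 and 2397 in labelled knockout replicates 1, 2 and 3, against 2951, 2934 and 1771 in wildtype for its brightest probe set. With this probe set labelled knockout arrays read higher than wildtype in both sets. Its log2 fold change was 0.37 ± 0.082, at the threshold (limma adjusted p = 0.0529). A dimmer probe set was also higher in both sets, at 1242, 1259 and 467.3 in labelled knockout against 1029, 973.3 and 284 in wildtype. Its log2 fold change was 0.45 ± 0.11 (limma adjusted p = 0.0626). The remaining one was higher near 500 and lower near 150 (442.1 in labelled knockout against 457.6 in wildtype), with 0.19 ± 0.13 over all arrays (limma adjusted p = 0.439). None of the 3 Esrrb probe sets passed the test. No source used here places the Esrrb probes relative to the deleted part, so this gene does not check the labels. The ratio of 3′ to 5′ signal of Actb, a sign of RNA quality, was 1.82, 1.66 and 1.67 in labelled knockout and 1.83, 1.89 and 2.32 in wildtype arrays, and its part in the results was not tested. All 8 lens markers (Cryaa, Cryab, Cryba1, Crybb1, Crygb, Crygd, Mip and Bfsp1) were kept and rose in the limma fit, by 1.46 to 5.83 on the log2 scale, against 1.28% of all 12536 genes that rose. Bfsp1, Cryaa and Cryba1 did not pass without a variance trend (adjusted p = 0.0729, 0.167 and 0.167), and none of the 8 did without the set term. The list summed to between 29942 and 49212 in labelled knockout and between 4039 and 6721 in wildtype arrays, and its part in the results was not tested either. In pooled tissue, fewer cells of a type and less RNA per cell cannot be told apart.

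Rod markers were bright in both genotypes. The 7 kept of 8, which include the transducin and phosphodiesterase subunit genes Gnat1 and Pde6b, summed to 171222 and 193456 in labelled knockout and 221057 and 215945 in wildtype arrays near 500, and to 32457 against 32610 near 150. Their lowest signal in any array was 1316, for Pde6a, and none passed the test with its brightest probe set. All 7 had a fold change over the 6 arrays below 0, but their median log2 fold change was -0.375 near 500 and 0.01 near 150. The part of rod content in the signals of Crx and Nrl was not tested.

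None of the 12 kept probe sets of the fate factors passed the test over the 6 arrays. A probe set was kept when its mean log2 signal lay at or above the 40th percentile, which left 12 of 13 for the 7 genes and 27022 in all. The limma fit called 0 of the 12 at an adjusted p below 0.05, against 2.25% of all kept probe sets (1.04% higher and 1.22% lower in labelled knockout). At an unadjusted p below 0.05 there were 7 of 12, against 20.4% of all: Otx2, Neurod1 and Prdm1 with a probe set each on the higher side, and Crx, Nrl, Samd7 and Casz1 with a probe set each on the lower side. A missed threshold does not show that a level was the same, and the intervals are given with each gene. The median log2 fold change (labelled knockout minus wildtype) of the 12 was 0.04, against -0.02 for all kept probe sets, and the single values ran both ways. The plot of signals shows each probe set in each array.

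**Figure D1:**
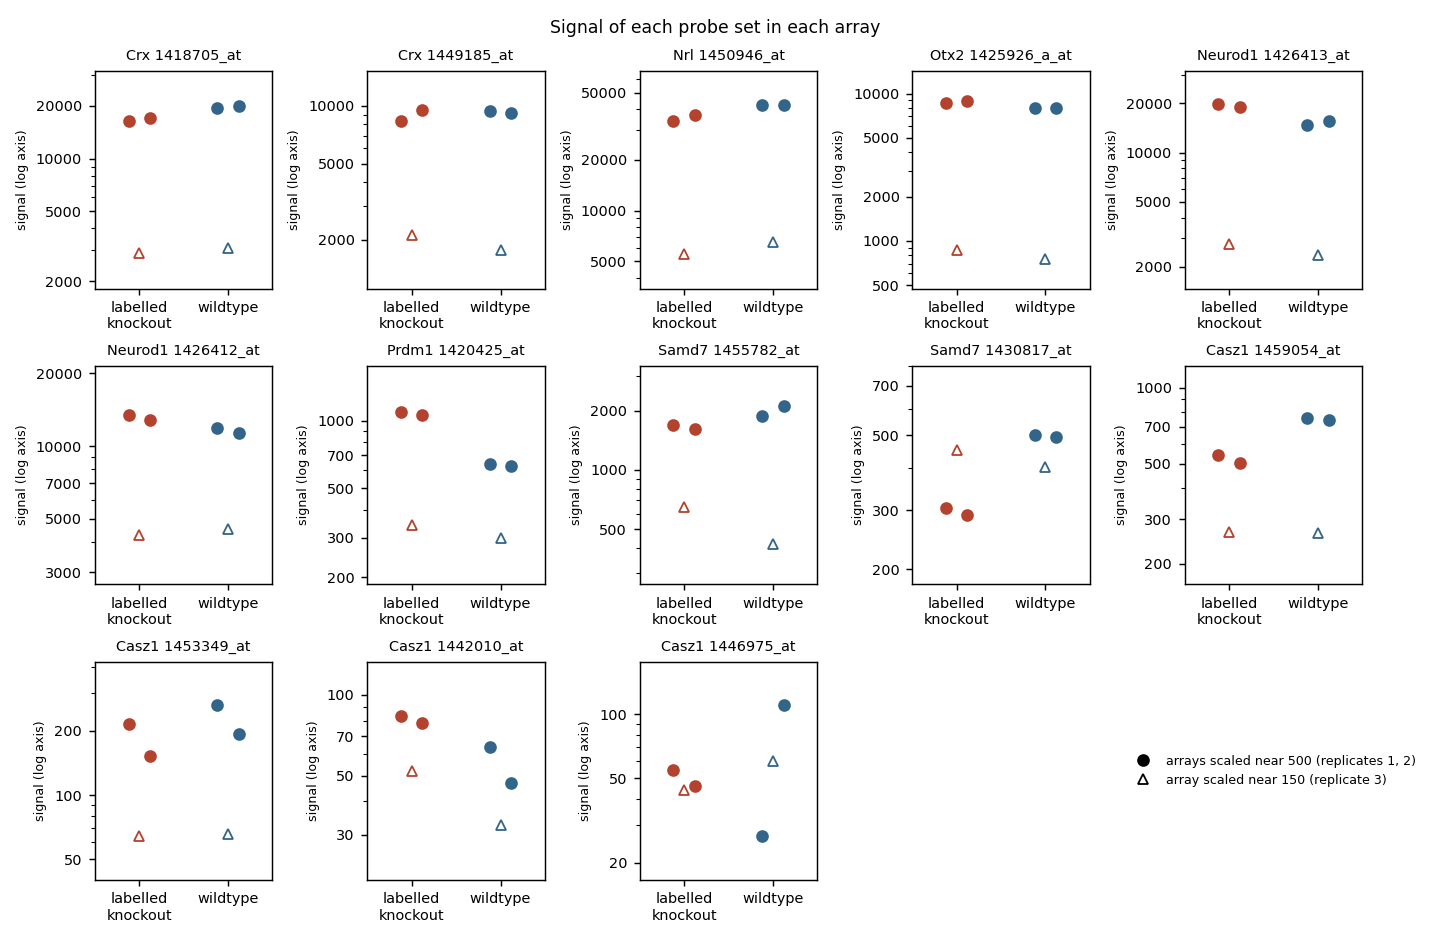
Signal of the 13 probe sets of the 7 fate factor genes (vertical axes, deposited intensity, log scale, a separate range in each panel) in arrays labelled knockout (red, left) and wildtype (blue, right). Filled circles are replicates 1 and 2, scaled near 500, and open triangles are replicate 3, scaled near 150. Prdm1 was higher in labelled knockout within both sets, and Samd7 was lower near 500 and higher near 150.

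Otx2, which opens the cascade and is also expressed in bipolar cells and in pigment epithelium, was slightly higher in the arrays labelled knockout. Its probe set 1425926_a_at read 8693 and 8967 in labelled knockout and 8041 and 8003 in wildtype arrays near 500, and 860.3 against 757.5 near 150. The labelled knockout arrays were the higher ones in both sets. Near 500 the genotypes did not overlap, as for 58.7% of all kept probe sets, and near 150 there is 1 array for each. The log2 fold change was 0.15 ± 0.068 (SE, n = 3 per genotype; 95% interval 0.001 to 0.31) and did not pass in limma (adjusted p = 0.241). Markers of pigment epithelium moved the same way: of 10 kept of 11, Tyrp1 (0.77), Pmel (1.05), Mlana (1.19) and Dct (0.62), all of the melanosome, rose in the limma fit and none fell, against 1.28% and 1.48% of all genes. These 4 did not pass without a variance trend (adjusted p from 0.156 to 0.235) or without the set term. Without wildtype replicate 2 none of these 4 passed (adjusted p from 0.0622 to 0.139), nor did Dct or Mlana without labelled knockout replicate 1 (0.0594 and 0.0677) or Dct without labelled knockout replicate 2 (0.084). Their list summed to 50127 and 56958 in labelled knockout and 43510 and 45082 in wildtype arrays near 500, and to 3388 against 2659 near 150, with Best1 below the filter and Lrat lowest at 5.46. Of the bipolar markers, 8 of 10 were kept, and they summed to 28180 and 29940 in labelled knockout and 26801 and 25223 in wildtype arrays near 500, and to 6948 against 7431 near 150. The part of either cell type in the Otx2 signal was not tested.

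Crx, the activator of outer segment genes, gave different values with its 2 probe sets. The brighter probe set, 1418705_at, read 16418 and 16937 in labelled knockout and 19506 and 19814 in wildtype arrays near 500, and 2904 against 3079 near 150. It was lower in labelled knockout in both sets, by a ratio of 0.848 near 500 and 0.943 near 150. The log2 fold change was -0.19 ± 0.069 (SE, n = 3 per genotype), with an adjusted p of 0.175 in limma. The second, 1449185_at, read 8388 and 9564 in labelled knockout and 9381 and 9225 in wildtype arrays near 500, where the genotypes overlapped, and 2106 against 1773 near 150, where labelled knockout was higher. Its log2 fold change of 0.05 ± 0.088 had a 95% interval of -0.15 to 0.24 (adjusted p = 0.808). The 2 Crx probe sets differed by 0.23 ± 0.12 in their fold change, which did not pass the test of that difference (limma adjusted p = 0.634).

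Nrl, the rod determinant, was lower in labelled knockout in both sets. Its probe set 1450946_at read 34190 and 36804 in labelled knockout and 42184 and 42278 in wildtype arrays near 500, and 5505 against 6477 near 150. The genotypes did not overlap near 500, as for 58.7% of all kept probe sets. Near 150 there is 1 array for each genotype. The ratios of labelled knockout to wildtype, 0.84 near 500 and 0.85 near 150, were close to each other. The log2 fold change of -0.25 ± 0.068 (SE, n = 3 per genotype; 95% interval -0.40 to -0.09) did not pass in limma (adjusted p = 0.0931). Its change near 150 differed from that near 500 by 0.02 ± 0.12 on the log2 scale, not past the test (limma adjusted p = 0.964).

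Neurod1, which supports photoreceptor survival and is also expressed in some amacrine cells, was higher in labelled knockout in the arrays near 500 with both of its probe sets. The brighter, 1426413_at, read 19826 and 18920 in labelled knockout and 14794 and 15525 in wildtype arrays near 500, and 2759 against 2349 near 150. Labelled knockout was the higher in both sets, with a log2 fold change of 0.31 ± 0.070 (SE, n = 3 per genotype) that lay at the threshold (limma adjusted p = 0.0528). This probe set was further from it in limma without a variance trend (adjusted p = 0.269), with replicate numbers as blocks (0.124) and without the filter (0.112). Leaving out any single array near 500 gave adjusted p from 0.201 to 0.262. The second, 1426412_at, read 13386 and 12783 in labelled knockout and 11871 and 11348 in wildtype arrays near 500, and 4284 against 4522 near 150. It was thus higher near 500 and lower near 150, with 0.09 ± 0.077 over all arrays (adjusted p = 0.556). The 2 Neurod1 probe sets differed by -0.22 ± 0.12, second minus brighter, which did not pass (adjusted p = 0.634). All 9 amacrine markers were kept, and they summed to 38819 and 40058 in labelled knockout and 38514 and 39124 in wildtype arrays near 500, and to 8456 against 8963 near 150.

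Prdm1, the repressor of the bipolar programme, had the largest increase of the members whose signal lay above the array medians. Its probe set 1420425_at read 1094 and 1059 in labelled knockout and 637.5 and 628.6 in wildtype arrays near 500, and 343.1 against 297.9 near 150. The labelled knockout arrays were higher in both sets, at 1.70 times wildtype near 500 and 1.15 times near 150. Near 500 the genotypes did not overlap, as for 58.7% of all kept probe sets. The log2 fold change was 0.58 ± 0.13 (SE, n = 3 per genotype; 95% interval 0.29 to 0.87), at the threshold in limma (adjusted p = 0.0529). Prdm1 was further from it in limma without a variance trend (adjusted p = 0.251), with replicate numbers as blocks (0.117) and without the filter (0.0754). Leaving out any single array near 500 gave adjusted p from 0.219 to 0.258. The log2 fold change near 150 was smaller by 0.56 ± 0.18, a difference that did not pass (limma adjusted p = 0.172) but did with arrays centred on their medians (-0.86, adjusted p = 0.0258). None of the 8 bipolar markers kept passed the test over all probe sets, and 6 of them had a fold change above 0 over the 6 arrays. Their median log2 fold change was 0.24 near 500 and -0.085 near 150.

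Samd7, the Polycomb partner of rods, lay on opposite sides of wildtype in the 2 sets of arrays with both probe sets. The brighter, 1455782_at, read 1697 and 1617 in labelled knockout and 1877 and 2113 in wildtype arrays near 500, and 650.8 against 419.3 near 150. Labelled knockout was below wildtype near 500 and above it near 150, with log2 fold changes of -0.27 and 0.63. The difference between the sets, 0.90 ± 0.16, passed the test of that difference (limma adjusted p = 0.0323), as did 1.19% of all kept probe sets, and it was the single member of the 12 to do so. It did not pass with arrays centred on their medians (0.60, adjusted p = 0.0652), without the filter (adjusted p = 0.0846) or without a variance trend (adjusted p = 0.338). At an unadjusted p below 0.05 there were 4 of 12, against 15.7% of all. The second, 1430817_at, read 303.9 and 289.3 in labelled knockout and 500.9 and 492.5 in wildtype arrays near 500, and 451.6 against 403.6 near 150. Over the 6 arrays the brighter had 0.03 ± 0.16 and the second -0.44 ± 0.18 (limma adjusted p = 0.927 and 0.205). The second had log2 fold changes of -0.74 near 500 and 0.16 near 150, with a difference of 0.91 ± 0.22 (adjusted p = 0.0893). The array near 150 is 1 for each genotype, so this difference rests on a single pair there. In labelled knockout the second probe set read lower near 500 than near 150, a ratio of 0.657, while the other members kept had ratios from 1.56 to 10.3 between these sets.

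Casz1, active in progenitors and in adult rods, had 4 probe sets that did not share a direction. The brightest, 1459054_at, read 539.7 and 503.0 in labelled knockout and 763.0 and 743.4 in wildtype arrays near 500, and 266.8 against 265.6 near 150. It was lower in labelled knockout near 500 and nearly level near 150, with -0.35 ± 0.13 over all arrays (limma adjusted p = 0.183). The next, 1453349_at, read 216.4 and 151.9 in labelled knockout and 264.2 and 193.2 in wildtype arrays near 500, where the genotypes overlapped. It read 64.19 against 65.70 near 150, with -0.22 ± 0.23 over all arrays (limma adjusted p = 0.63). The dimmest kept, 1442010_at, read 83.21 and 78.53 in labelled knockout and 64.07 and 46.83 in wildtype arrays near 500, and 51.79 against 32.65 near 150. These signals lie below the array medians, which were 57.3 to 135, and no detection limit is given, so their log2 fold change of 0.60 ± 0.34 (adjusted p = 0.361) is approximate. The probe set below the filter, 1446975_at, read 54.57, 45.83 and 43.98 in labelled knockout and 26.61, 110.8 and 60.10 in wildtype replicates 1, 2 and 3. Its genotypes overlapped, and in the fit without the filter its log2 fold change was -0.23 ± 0.55 (adjusted p = 0.898).

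**Figure D2:**
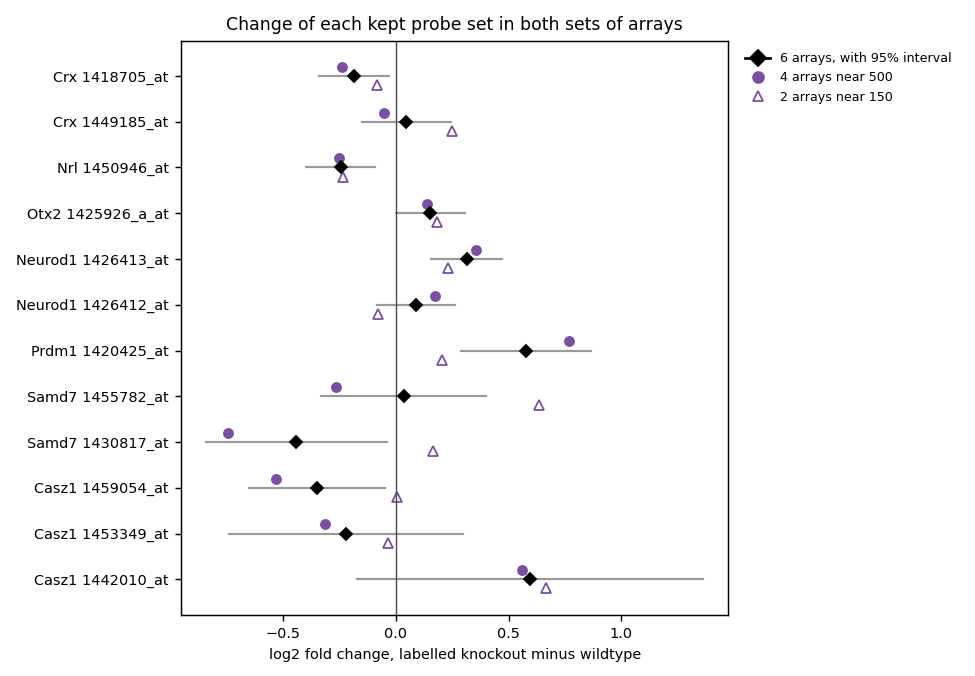
Log2 fold change, labelled knockout minus wildtype (horizontal axis), of the 12 kept probe sets. Black diamonds with lines are the limma estimates over 6 arrays with 95% intervals, filled circles the 4 arrays near 500 and open triangles the 2 arrays near 150. Otx2, Nrl, Prdm1 and the brighter probe sets of Crx and Neurod1 keep their side of 0 in both sets, and both probe sets of Samd7 do not.

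Probe sets of 1 gene were next set against each other. Of the 4 genes with several kept probe sets, Crx, Samd7 and Casz1 had probe sets with fold changes over the 6 arrays on opposite sides of 0. Neurod1 did not, where 44.9% of all 6192 such genes on the array did. For Samd7 this rests on 0.03 ± 0.16 for 1455782_at, and within each set of arrays its 2 probe sets shared a direction. The 2 Neurod1 probe sets lay on opposite sides of 0 near 150 (0.23 and -0.08). None of the 5 differences between a further probe set and the brightest of its gene passed in limma. The same held for all 10752 differences tested on the array (0% called, and 8.66% at an unadjusted p below 0.05). The largest of the 5 was that of Casz1 1442010_at, 0.95 ± 0.21 (limma unadjusted p = 0.00423, adjusted p = 0.491), whose low signal is given above. The next was that of Samd7 1430817_at, -0.48 ± 0.14 (unadjusted p = 0.0128, adjusted p = 0.503). The others had an unadjusted p from 0.103 to 0.535.

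Taken alone, the arrays near 500 gave more calls than the 6 arrays together, among the fate factors and among all probe sets. The log2 fold changes were not all larger there, and Otx2 had 0.14 near 500 and 0.15 over the 6 arrays. Near 500 the labelled knockout and wildtype arrays did not overlap for 10 of the 12 probe sets, 5 higher and 5 lower, against 58.7% of all kept probe sets. For 6 of these 10 the pair near 150 had the same direction (Crx 1418705_at, Nrl, Otx2, Neurod1 1426413_at, Prdm1 and Casz1 1442010_at). Of all 15850 kept probe sets without overlap near 500, this was so for 9091, which are 33.6% of all kept probe sets. Counting probe sets with overlap too, 7 of 12 had the same direction in both sets, against 54.6% of all. A limma fit of the 4 arrays near 500 alone called 6 of 12, against 13.6% of all, with 2 higher and 4 lower against 5.94% and 7.7% of all. Prdm1 (0.77, adjusted p = 0.00134) and Neurod1 1426413_at (0.35, adjusted p = 0.00693) rose there. Samd7 1430817_at (-0.74, adjusted p = 0.0118), Casz1 1459054_at (-0.53, adjusted p = 0.0183), Nrl (-0.25, adjusted p = 0.0341) and Crx 1418705_at (-0.24, adjusted p = 0.0351) fell. These calls appear when either array near 150 is left out, since the other then has no partner: without labelled knockout replicate 3 the adjusted p was 0.00154 for Prdm1 and 0.0369 for Crx 1418705_at, and without wildtype replicate 3 it was 0.00144 and 0.0367. They are calls for 2 arrays against 2 and hold for that set.

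The size of these changes depended on how the arrays were scaled. The median signal of all probe sets was itself lower in labelled knockout near 500, by a log2 shift of -0.19 (medians of 118 and 114 in labelled knockout and 135 and 130 in wildtype arrays), and higher near 150, by 0.10. Centred on the array medians, the log2 fold changes near 500 were 0.96 for Prdm1, 0.55 for Neurod1 1426413_at and -0.55 for Samd7 1430817_at, and each still passed in limma (adjusted p = 5.38e-05, 0.00172 and 0.0252). With quantile normalization these 3 were 0.77, 0.36 and -0.69 and passed as well (adjusted p = 0.00167, 0.00286 and 0.0175). Nrl had -0.06 centred (adjusted p = 0.770) and -0.07 with quantile normalization (adjusted p = 0.251), so its call near 500 was lost in both. Crx 1418705_at had -0.04 centred (adjusted p = 0.802) and -0.25 with quantile normalization (adjusted p = 0.00633), and Casz1 1459054_at had -0.34 (adjusted p = 0.0748) and -0.51 (adjusted p = 0.0258). Centring also called Otx2 (0.33, adjusted p = 0.0189) and the second Neurod1 probe set (0.37, adjusted p = 0.0130) near 500, and it turned the second Crx probe set to 0.14. The share of all probe sets called near 500 was 24.6% when centred and 12.4% with quantile normalization.

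**Figure D3:**
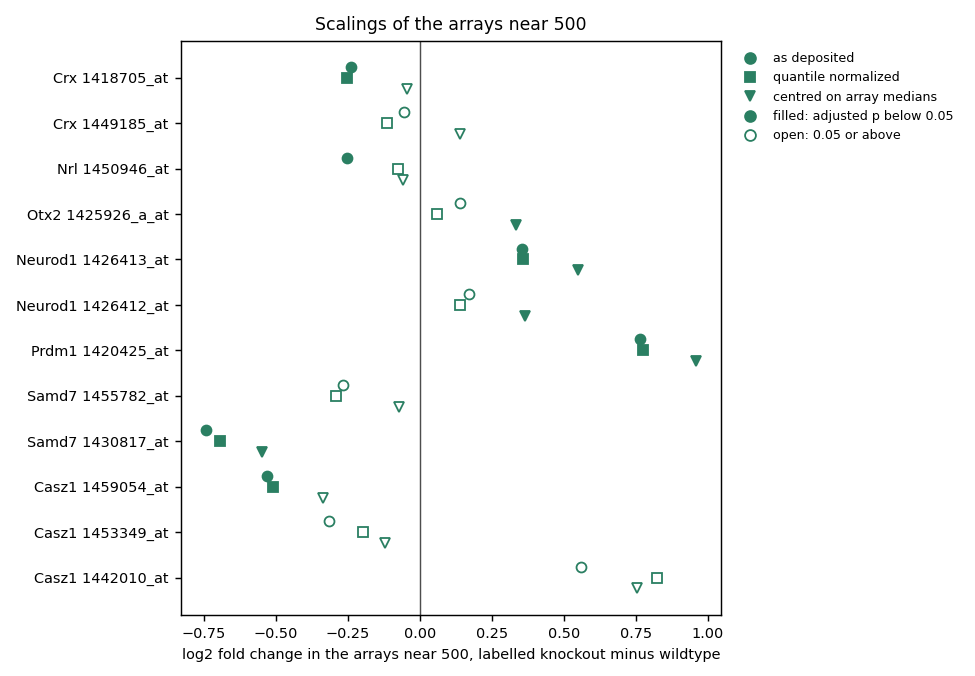
Log2 fold change in the 4 arrays near 500, labelled knockout minus wildtype (horizontal axis), of the 12 kept probe sets under 3 scalings: as deposited (circles), quantile normalized (squares) and centred on array medians (triangles). Filled symbols had an adjusted p below 0.05 in limma. Prdm1, Neurod1 1426413_at and Samd7 1430817_at are filled under all 3, and Nrl as deposited alone.

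The other transcription factors of photoreceptors were read from a list of 17, of which 15 were kept. Pias3, a SUMO ligase that acts with the rod factors, rose by 0.55 ± 0.079 (limma adjusted p = 0.00958), at 2837, 2599 and 937.5 in labelled knockout and 1902, 1823 and 632.9 in wildtype replicates 1, 2 and 3. It was higher in both sets, with log2 fold changes of 0.54 near 500 and 0.57 near 150. Mef2c, a MADS-box factor of neurons and photoreceptors, fell by 2.78 ± 0.28 (adjusted p = 0.0017), at 193.0, 138.3 and 154.4 in labelled knockout and 1680, 1572 and 507.4 in wildtype. So 1 rose, 1 fell and 13 did not pass, against 1.28% and 1.48% (2.75% in all) of all 12536 genes, each represented by its brightest kept probe set. The list's median was -0.04, against 0.02 for all genes. A dimmer probe set of the orphan receptor gene Rora, singled out after its value was seen, fell by 0.42 ± 0.078 (adjusted p = 0.0301), while the brightest of Rora had -0.17 and did not pass. Pias3 did not pass without either wildtype array near 500 (adjusted p = 0.0661 and 0.108) or either labelled knockout array near 500 (adjusted p = 0.0771 and 0.0532).

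Among the genes that Crx and Nrl are known to activate, those past the test were all lower in labelled knockout. Of 26 listed, 23 were kept, 4 fell, none rose and 19 did not pass, where 1.48% of all genes fell and 1.28% rose. Those that fell were Guca1a (-1.83 ± 0.15) and Guca1b (-0.68 ± 0.086), which encode calcium sensors of the photoreceptor guanylate cyclases, Aipl1 (-0.73 ± 0.079), a chaperone of phosphodiesterase, and Reep6 (-0.67 ± 0.094), an endoplasmic reticulum protein of rods, with limma adjusted p from 0.000449 to 0.0089. The list's median was -0.25 over the 6 arrays, -0.32 near 500 and 0.00 near 150, against 0.02, 0.02 and 0.02 for all genes. Guca1b did not pass without wildtype replicate 1 or 2 (adjusted p = 0.0584 and 0.0836). Reep6 did not pass without any single array near 500, with adjusted p from 0.0537 to 0.107. Pias3, Mef2c and these 4 genes kept their direction but did not pass in a limma fit without a variance trend (adjusted p from 0.116 to 0.231) or without the set term. The 11 cone genes kept, of 12, had a median of 0.04 and 0 members past the test in limma, and the progenitor and inner retinal fate factors (14 of 23 kept) had a median of -0.08 and 0 members past it. The 8 Müller glia markers kept summed to 65427 and 74181 in labelled knockout and 63251 and 64619 in wildtype arrays near 500, and to 11579 against 11934 near 150, and none passed with its brightest probe set. A dimmer probe set of Aqp4, the water channel of Müller glia, singled out after its value was seen, rose by 0.60 ± 0.10 (adjusted p = 0.0241).

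**Figure D4:**
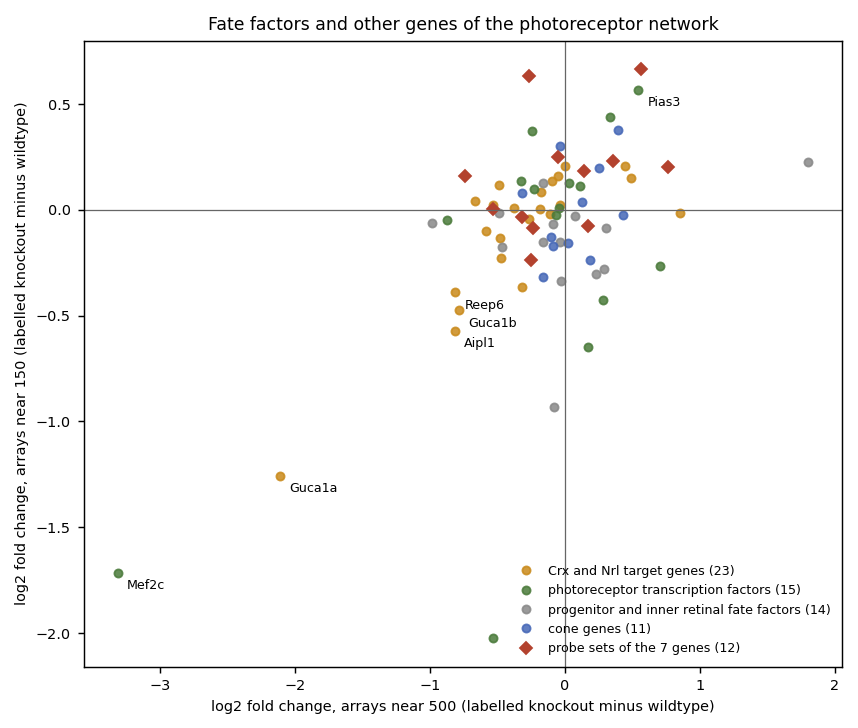
Log2 fold change, labelled knockout minus wildtype, in the arrays near 500 (horizontal axis) and near 150 (vertical axis) for the 12 probe sets of the fate factors (diamonds) and for genes of 4 lists (circles, 1 brightest probe set per gene, number of genes in the key). Named genes passed the test over 6 arrays: Mef2c and Guca1a lie far to the lower left and Pias3 to the upper right, while the fate factors lie between -0.74 and 0.77 near 500.

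For each fate factor the genes with the most similar profile were found by Pearson's correlation over the 6 arrays, between brightest kept probe sets, of log2 signal less its set mean. These 6 points share arrays and scaling and carry the genotype difference, and very high values were common: between 4 genes for Samd7 and 78 genes for Prdm1, of 12535 compared, exceeded 0.99. The closest were Sirt2 and Prcp for Prdm1, Ppp3cc and Amy1 for Crx, Dio2 and Epb41l2 for Nrl, Gpx1 and Mrpl10 for Otx2, Slc35b2 and Serf1 for Neurod1, Isl2 and Epg5 for Samd7 and Cxadr and Zfp961 for Casz1, with correlations of 0.996 or more. Of these, Gpx1 (0.51, adjusted p = 0.0247), Serf1 (0.88, adjusted p = 0.0287) and Sirt2 (0.67, adjusted p = 0.0299) rose in the limma fit of 6 arrays. Ppp3cc (-0.64, adjusted p = 0.0289), Amy1 (-0.53, adjusted p = 0.0365), Dio2 (-0.57, adjusted p = 0.0301) and Epb41l2 (-0.34, adjusted p = 0.0453) fell. Of all genes 2.75% were called. The genes named here were picked by profiles that carry the genotype difference in the same arrays, so their calls follow in part from the choice. Among the fate factors themselves, the profile of Crx ran with that of Nrl (0.938) and opposite to those of Prdm1 (-0.993) and Neurod1 (-0.965), and Samd7 ran with none of them closely (-0.332 to 0.498).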

How the data were processed

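Signals of 6 mouse retina arrays were read from the deposited table, an intensity per probe set on a linear scale. Per the submitters' processing notes the authors used GCOS 1.4 and MAS5, with no role or order stated. RNA was amplified once from an oligo dT primer and biotin labelled, per the labels' protocols. Of 45101 probe sets, 64 controls were left out. Names came from the platform annotation (34945 probe sets with 1 symbol, 932 with several, 9160 with none).

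Signals were taken to log2 and kept where the mean lay at or above the 40th percentile (geometric mean signal 54.5). The genotype effect was fitted by lmFit and trend-moderated eBayes of limma 3.58.1 (R 4.3.3), two-sided. The set of arrays (near 500 or near 150, by a mean that left out the top and bottom 2% of signals) was a term. P-values were adjusted by Benjamini-Hochberg over 27022 probe sets at a threshold of 0.05. The same model tested differences between probe sets of a gene and between the 2 sets (interaction). Replicate numbers were checked for pairing: deviations from genotype means correlated at 0.57, 0.67 and 0.843 for numbers 1, 2 and 3. Crossed numbers 1 and 2 gave 0.627 and 0.607, both above the value for number 1. These deviations still hold the difference between the 2 sets of arrays, so the check cannot show whether the numbers pair the samples. With a replicate block 200 probe sets were called, against 609.

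The genes, lists and tests were chosen with earlier results of these data known. Named are every probe set of the 7 genes, list members past the test, Esrrb, and the 2 genes most alike each member in profile. Array data carry no read depth. Promoter windows came from RefSeq (GRCm38.p6).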

Additional observations from a re-analysis of the deposited data

Results flagged for a closer look

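The interaction test of limma compared the change between genotypes in the arrays near 500 and in the pair near 150. It called 8 probe sets of the fate factors and gene lists, against 1.19% of all kept probe sets. Of the 12 fate factor probe sets 1 was called, and the rest were the brightest probe sets of listed genes. Without a variance trend the test called 0 of all kept probe sets. Each of the 8 rests on 1 array per genotype near 150. For Samd7 1455782_at the log2 fold change near 150 exceeded that near 500 by 0.90 ± 0.16 (adjusted p = 0.0323), with 0.63 near 150 and -0.27 near 500, so the direction itself turned. Mef2c 1421027_a_at fell less near 150 (-1.72) than near 500 (-3.31), a difference of 1.598 ± 0.29 (adjusted p = 0.0351). Guca1a 1421061_at also fell less near 150 (-1.26) than near 500 (-2.11), by 0.86 ± 0.12 (adjusted p = 0.0111). For the rod phosphodiesterase gene Pde6a 1450415_at the difference was 0.71 ± 0.12 (adjusted p = 0.0294), with 0.04 near 150 and -0.67 near 500. The Müller glia potassium channel gene Kcnj10 1419601_at had -0.63 near 150 and 1.03 near 500, a difference of -1.66 ± 0.24 (adjusted p = 0.0142). The lens genes Cryaa 1452486_a_at (-1.998 ± 0.14, adjusted p = 0.000617), Cryba1 1450671_at (-2.29 ± 0.18, adjusted p = 0.00103) and Crybb1 1418306_at (-1.09 ± 0.20, adjusted p = 0.0364) had a smaller excess near 150 than near 500.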

How the results depend on the processing

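Over the settings tried, the count of fate factor probe sets past the threshold over 6 arrays was 0 with arrays centred on their medians, no filter, no set term, no variance trend and a replicate block (limma; 3, 6, 0, 4 and 5 at an unadjusted p below 0.05). It was 1 with quantile normalization within sets (Neurod1 1426413_at, adjusted p = 0.0294) and 1 with 16 added to each signal (Prdm1, adjusted p = 0.0499). It was 2 with a filter at the 60th percentile (both of these, adjusted p = 0.0367 and 0.0387) and 6 in the arrays near 500 only, where it was 5 when these were centred and 5 when quantile normalized, both chosen after seeing the data. Leaving out 1 array gave 0 to 6. The count over all probe sets, 609, was 284 centred, 405 without a filter, 955 at the 60th percentile, 0 without the set term (118 at an unadjusted p below 0.05 in limma), 200 with a replicate block, 19 without a variance trend, 3687 near 500, 6651 near 500 centred, 3342 near 500 quantile normalized, and 77 to 3710 leaving out 1 array. Differences between probe sets of a gene were 0 over 6 arrays and 3 near 500, also 3 centred and 3 quantile normalized, and 0 to 3 leaving out 1 array; none was of a fate factor. Differences between the sets, 321, were 1631 centred, 128 without a filter, 593 at the 60th percentile and 0 without a variance trend (3242 unadjusted). The replicate block changed no call of a fate factor. These fold changes turned sign: near 500 the second Crx probe set (-0.055, and -0.115 quantile normalized) and Samd7 1455782_at (-0.27, -0.29 quantile normalized and -0.071 centred), with ranges of -0.055 to 0.129 and -0.266 to 0.169 leaving out 1 array. The difference between Casz1 1453349_at and the brightest probe set ranged from -0.013 to 0.224 leaving out 1 array. The difference between sets turned with quantile normalization for Nrl (-0.15) and Casz1 1442010_at (-0.26), and centred for Crx 1418705_at (-0.14), Nrl (-0.28), Otx2 (-0.25), Casz1 1453349_at (-0.014) and Casz1 1442010_at (-0.19). None of these values was past the threshold, and the causes were not tested. Values for the arrays near 150 alone had no test.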
